A study of Caenorhabditis elegans with 12 samples.

Results

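The superoxide dismutase and catalase genes of Caenorhabditis elegans were followed across 4 genotypes by RNA sequencing of whole worms. They were taken by name: sod-1 to sod-5 and ctl-1 to ctl-3, 8 of the 46739 genes in the count table, and all 8 were among the 15764 genes tested. N2, the standard wild type, was set beside animals mutant for daf-2, which encodes the worm's insulin/IGF-1 receptor. The spr double mutant (labelled spr-4;spr-3) is changed in 2 zinc-finger genes that resemble REST, a repressor of neuronal genes in mammals, and libraries with the label spr-4;spr-3;daf-2 are named triple-labelled. Each group had 3 biological replicates of 100 worms, grown at 20 °C and collected 24 h after the L4 stage, an age labelled day 2. The labels give no alleles, and the mutations are carried in every tissue of the animal.

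Superoxide, a by-product of respiration, is turned into hydrogen peroxide by superoxide dismutases, and catalases split hydrogen peroxide into water and oxygen. When the insulin/IGF-1 receptor DAF-2 signals weakly, the transcription factor DAF-16 enters the nucleus and raises stress defence genes, of which sod-3 is the classic reporter in the worm. The enzymes differ in metal and place: SOD-1 is the main cytosolic copper/zinc enzyme and SOD-5 a minor one known from the dauer larva, SOD-4 is the extracellular copper/zinc enzyme, and SOD-2 and SOD-3 are manganese enzymes of the mitochondria. CTL-2 is the peroxisomal catalase and CTL-1 a cytosolic one.

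In the WBcel235 annotation the genes lie as follows. sod-1 (WBGene00004930) spans 6972706 to 6973887 on chromosome II, minus strand, and codes for 180 amino acids. sod-2 (WBGene00004931) spans 8434550 to 8435807 on I, and sod-3 (WBGene00004932) spans 17092753 to 17094306 on X, both on the plus strand, with 221 and 218 codons. sod-4 (WBGene00004933) spans 9496884 to 9500375 on III, minus strand, with 4 annotated transcripts that gene counts cannot separate. sod-5 (WBGene00007036) spans 4417633 to 4419130 on II, plus strand. The 3 catalase genes stand in a row on the minus strand of II within 11224 bp: ctl-2 (WBGene00000831) at 14299556 to 14302027, ctl-1 (WBGene00000830) at 14303568 to 14306260 and ctl-3 (WBGene00013220) at 14307798 to 14310779, with 1540 and 1537 bp between neighbours. The catalases are close copies, as are sod-2 and sod-3, and how reads matching several copies were counted is not given in the sources used here, so the split of counts between copies is uncertain. sod-4 shares 175 bp of exon with ctr-9 on the other strand, ctl-2 shares 65 bp with Y54G11A.7 and sod-3 65 bp with C08A9.3. ctr-9 was lower in daf-2 than in N2 (log2 fold change -0.14) and Y54G11A.7 higher (0.30), and their part in the counts of sod-4 and ctl-2 was not tested.

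Library totals ran from 30837773 to 48894725 counts. The label check did not hold for spr-3, which had 9.22 ± 0.779 CPM in the spr double mutant but 16.4 ± 1.24 in the triple-labelled libraries, against 17.3 ± 1.06 in N2 and 17.5 ± 1.44 in daf-2 (SD, n = 3). spr-4 ran the way its labels say: N2 held 76.1 ± 1.75 CPM and daf-2 70.8 ± 3.06, while the spr double mutant held 64.1 ± 1.42 and triple-labelled samples 61.1 ± 3.15. The mRNA of daf-2 did not mark its label. N2 held 94.7 ± 1.80 CPM of it, daf-2 libraries 86.6 ± 9.68, triple-labelled samples 90.4 ± 5.43 and spr double mutants 86.9 ± 3.38. It was not called in daf-2 against N2 (log2 fold change -0.13, edgeR adjusted p = 0.0979). Nor was it called between triple-labelled and spr double mutant libraries (0.057, edgeR adjusted p = 0.482). The daf-2 label is therefore not checked by this mRNA. Ribosomal RNA took 0.150% to 0.181% of the counts in the 3 daf-2 libraries and 0.0348% to 0.0460% in the 9 others, so every comparison with daf-2 libraries also compares these. Markers were read for intestine, hypodermis, body wall muscle, neurons, germline, oocytes, sperm and the vitellogenins. None of these 65 genes was at 0 in any library. Summed intestine markers (9 genes) were 2807 to 2949 CPM in N2, 2641 to 2688 in the spr double mutant, 1564 to 1808 in daf-2 and 2201 to 2390 in triple-labelled samples. That sum is mostly asp-1 (N2 1875 CPM, daf-2 881 CPM), and of its genes 5 fell and 2 rose in daf-2, the latter being ges-1 (1.24) and elt-7 (0.61). Neuron markers (9 genes) were 254.9 to 260.6, 274 to 304, 305 to 321 and 347 to 365 CPM in that order, and sperm markers (10 genes) 39.4 to 55.5, 29.8 to 33.0, 13.3 to 16.6 and 31.5 to 36.1 CPM. The neuron sum is mostly snb-1 and egl-3. In daf-2 against N2 3 neuron genes rose and 2, rab-3 (-0.85) and rgef-1 (-0.53), fell. The sperm sum is mostly ssq-1 and ssq-4 in N2 (12.4 and 15.7 CPM) and mostly spe-41 in daf-2 (9.71 CPM). Of 8 tested sperm genes 6 fell and 1, spe-41 (0.85), rose in daf-2 against N2. In the spr double mutant against N2 5 fell and 1, smz-1 (1.35), rose. In daf-2 against N2, 7 of 9 hypodermis, 6 of 7 germline and 4 of 8 oocyte genes fell, and 0 rose in any of these lists. The germline sum was 5735 to 5884 CPM in N2 and 4811 to 5081 in daf-2. Of the body wall muscle genes 1 rose and 2 fell, and of the vitellogenins 2 rose and 2 fell. The part of these differences in the results was not tested, and in whole worms fewer cells of a type and less RNA per cell cannot be told apart.

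sod-1 had the highest level of the 8 genes per length of exon in all 4 genotypes, followed by sod-2 and ctl-2. In N2 these levels were 255.8 ± 5.78, 125 ± 2.95 and 32.0 ± 0.727 CPM per kilobase of exon (SD, n = 3), so that sod-1 stood 2.05 times above sod-2. sod-4 followed at 9.11 ± 0.587, sod-3 at 3.59 ± 0.0949, ctl-1 at 2.66 ± 0.373, ctl-3 at 2.02 ± 0.158 and sod-5 at 0.132 ± 0.0578. No neighbours in this order overlapped in N2. The order was the same in the spr double mutant. In both groups with the daf-2 label sod-3 stood above sod-4, at 29.5 ± 2.501 against 13.1 ± 0.948 in daf-2 and at 25.04 ± 0.731 against 16.5 ± 0.974 in the triple-labelled libraries. ctl-1 and ctl-3 overlapped in daf-2.

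**Figure D1:**
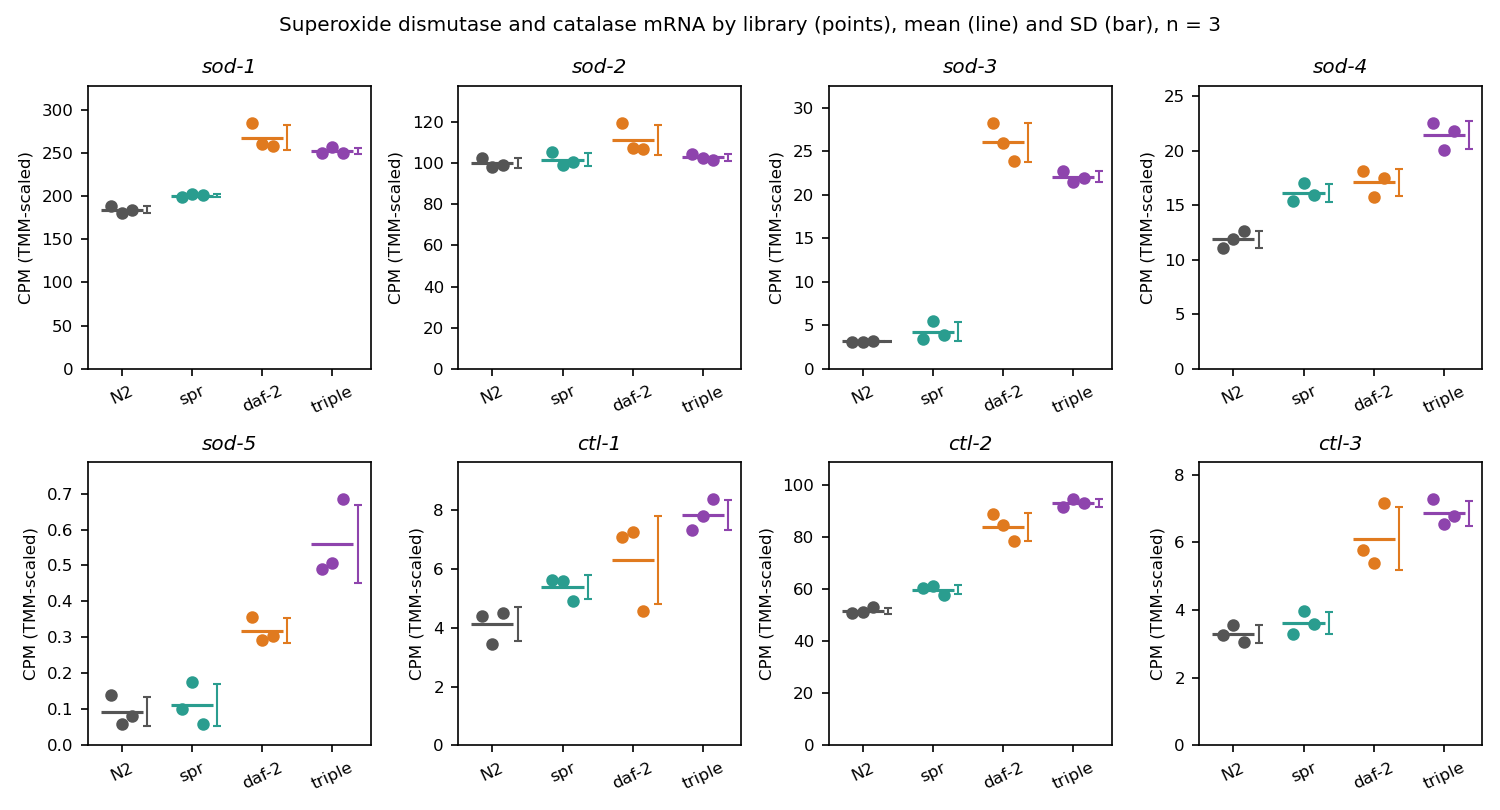
CPM with TMM scaling (y axis, linear from 0) of the 8 genes in N2, the spr double mutant (spr), daf-2 and the triple-labelled libraries (triple), with a point per library, a line at the mean and a bar of 1 SD (n = 3). sod-3 sits at 3.1 to 5.48 CPM in the groups with intact daf-2 and at 21.5 to 28.3 in the others, while sod-2 stays between 98.2 and 119.5 throughout.

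The receptor mutation alone is read from daf-2 against N2. All 8 genes were higher in daf-2 and called, by amounts that ran from 1.11-fold for sod-2 to 8.23-fold for sod-3, and in all 8 the groups did not overlap. Of all genes tested, 54.3% were called, 27.4% as higher and 26.9% as lower, and 59.3% had groups that did not overlap. The median log2 fold change of the 8 genes was 0.65, against -0.0015 over all genes tested. sod-5 reached the filter level only in the daf-2 and triple-labelled groups, so it could enter the test only through groups where it was high.

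The mitochondrial manganese enzymes stood at opposite ends. sod-3 had 3.1, 3.13 and 3.26 CPM in N2 and 28.3, 25.9 and 23.9 CPM in daf-2. Every daf-2 library was far above every N2 library (log2 fold change 3.04, SE 0.11, with an edgeR adjusted p = 1.51e-14). Of the genes tested, 135 had a larger log2 fold change. sod-2, its constitutive partner, had 103, 98.2 and 98.9 CPM in N2 and 119.5, 107 and 107 in daf-2, and it rose by 0.15 ± 0.043 (± SE, as for every log2 fold change here; edgeR adjusted p = 0.00496). The sod-2 log2 fold change was 0.10 on total counts (edgeR adjusted p = 0.047), and 0.11 to 0.20 when single libraries were left out, so this small rise depends in size on the scaling. Per exon length sod-3 came to 2.88% ± 0.126 of sod-2 in N2 and to 21.3% ± 0.871 in daf-2 (SD, n = 3).

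Among the copper/zinc enzymes, sod-1, sod-4 and sod-5 all rose. sod-1 had 189, 180.3 and 184 CPM in N2 and 285, 260.6 and 258 CPM in daf-2 (log2 fold change 0.54 ± 0.041, edgeR adjusted p = 2.93e-10). sod-4 had 11.1, 11.9 and 12.6 CPM in N2 and 18.1, 15.7 and 17.5 in daf-2 (0.53 ± 0.076, edgeR adjusted p = 4.17e-06). Neither gene overlapped between the groups. sod-5 was counted 7, 2 and 3 times in the N2 libraries and 14, 10 and 11 times in the daf-2 libraries. Its summed level was 3.22 times as high in daf-2, with a 95% interval of 1.63 to 6.81 that covers counting error only (edgeR log2 fold change 1.66 ± 0.44, adjusted p = 0.00326).

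All 3 catalase genes rose. ctl-2, the main catalase gene by counts, had 50.8, 50.99 and 52.9 CPM in N2 and 88.5, 84.4 and 78.2 CPM in daf-2 (log2 fold change 0.70 ± 0.044, edgeR adjusted p = 2.01e-11). ctl-3 had 3.28, 3.55 and 3.04 CPM in N2 and 5.78, 5.39 and 7.15 CPM in daf-2 (0.89 ± 0.12, edgeR adjusted p = 1.46e-06). ctl-1 had 4.41, 3.46 and 4.52 CPM in N2 and 7.08, 7.26 and 4.58 CPM in daf-2, where replicate 3 came close to N2 (0.60 ± 0.14, edgeR adjusted p = 0.00156). Their 95% intervals overlapped, at 0.61 to 0.79 for ctl-2, 0.65 to 1.14 for ctl-3 and 0.30 to 0.90 for ctl-1, and the differences between the genes were not tested.

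**Figure D2:**
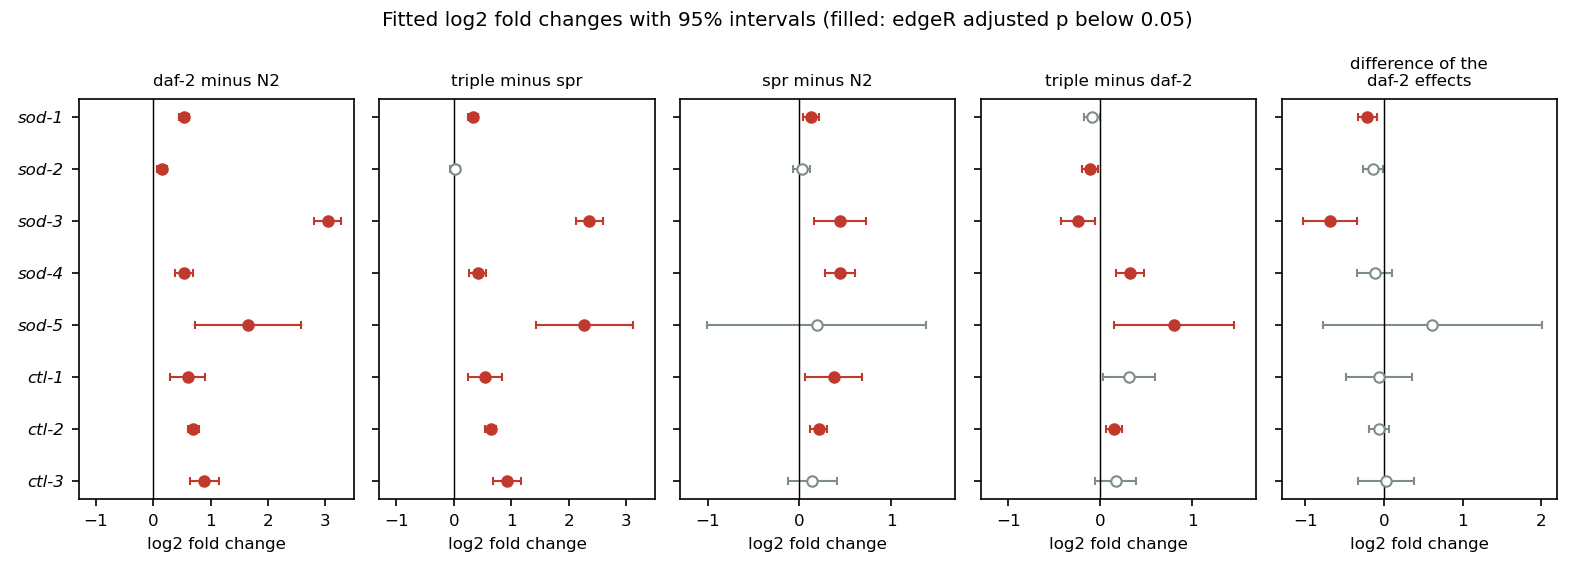
Fitted log2 fold changes (x axis, whose range differs between panels) of the 8 genes with 95% intervals in 4 pairwise comparisons and for the difference of the daf-2 effects; filled points were called by edgeR (adjusted p below 0.05). sod-3 leads both daf-2 panels at 3.04 and 2.36, and in the last panel only sod-3 (-0.68) and sod-1 (-0.21) are filled.

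The daf-2 effect was also read in animals with the spr label, from the triple-labelled libraries and the spr double mutant, whose spr-3 levels differ as given above. Of the 8 genes 7 were higher and called, and only sod-2 was not, against 49.3% of all genes called and 25.8% called as higher. The same 7 had groups that did not overlap, as did 58.9% of all genes. sod-5 reached the filter level in 0 libraries of the spr double mutant, so it entered only through groups where it was high. With a filter of at least 1 CPM in 6 libraries, sod-5 was not tested and 6 of 7 genes were called. The same filter called 6640 of 12274 genes in all. The libraries compared here do not include the daf-2 group with its larger ribosomal RNA share. sod-3 had 3.44, 5.48 and 3.88 CPM in the spr double mutant and 22.8, 21.5 and 21.9 CPM in the triple-labelled libraries (log2 fold change 2.36 ± 0.11, edgeR adjusted p = 1.36e-12). Its groups lay far apart, with the spread in the spr double mutant set by the second library. sod-2 had 105, 99.1 and 101 CPM against 105, 102 and 101, with overlapping groups (log2 fold change 0.017, 95% interval -0.074 to 0.11, edgeR adjusted p = 0.773).

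The copper/zinc genes again rose. sod-1 had 199, 202 and 201 CPM in the spr double mutant and 250.0, 257 and 250.2 in the triple-labelled libraries (0.33 ± 0.041, edgeR adjusted p = 8.18e-07). sod-4 had 15.4, 17.1 and 15.98 CPM against 22.6, 20.1 and 21.8 (0.41 ± 0.074, edgeR adjusted p = 8.67e-05). For sod-5 the counts were 3, 6 and 2 in the spr double mutant and 21, 19 and 28 in the triple-labelled libraries, a ratio of summed levels of 4.95 with a counting interval of 2.60 to 10.4. The catalases rose by 0.64 ± 0.044 for ctl-2, 0.92 ± 0.12 for ctl-3 and 0.54 ± 0.14 for ctl-1 (edgeR adjusted p = 1.65e-10, 1.36e-06 and 0.00323), and none overlapped between the groups.

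Whether the daf-2 effect differed with the spr label was tested by the interaction, for which 28.7% of all genes were called, 14.6% as lower. sod-3 and sod-1 were called, both with a smaller daf-2 rise in animals with the spr label. For sod-3 the rise was smaller by 0.68 on the log2 scale (interaction -0.68 ± 0.16, edgeR adjusted p = 0.00379), with means of 3.16 and 26.0 CPM without the label and 4.27 and 22.1 CPM with it. Without the second spr double mutant library, which was highest for sod-3 in its group, the difference was -0.47 (edgeR adjusted p = 0.0217). sod-1 differed by -0.21 ± 0.057 (edgeR adjusted p = 0.00879). On total counts the median of all genes in this test moved to 0.13, and sod-1 was then not called (-0.087, edgeR adjusted p = 0.24) while sod-3 was still called (-0.56, edgeR adjusted p = 0.0127). For the other genes the intervals of the difference included 0 except for sod-2 (-0.26 to -0.0085), which was not called after adjustment (edgeR adjusted p = 0.102). For ctl-2 the interval was -0.19 to 0.069.

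With daf-2 intact, the spr mutations are read from the spr double mutant against N2. Here 5 of the 8 genes were called, all higher, against 46.5% of all genes called and 24.6% called as higher. The same 5 did not overlap between the groups, as 57.5% of all genes did not. sod-4 showed the firmest rise of them, from a mean of 11.9 ± 0.766 to 16.1 ± 0.853 CPM (SD, n = 3), with every library above N2 (log2 fold change 0.44 ± 0.077, edgeR adjusted p = 8.11e-05). ctl-2 went from 51.6 ± 1.17 to 59.7 ± 1.703 CPM, also without overlap (0.21 ± 0.045, edgeR adjusted p = 0.000642). Both were called in every alternative tried. sod-3 was higher by 0.44 ± 0.14 (edgeR adjusted p = 0.0119), and without the second spr double mutant library the value was 0.22 (edgeR adjusted p = 0.173).

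The other calls of that comparison were less firm. sod-1 was higher by 0.12 ± 0.041 (edgeR adjusted p = 0.0172), with 0.032 on total counts (edgeR adjusted p = 0.515) and no call without N2 replicate 2 (0.103), N2 replicate 3 (0.0563) or spr double mutant replicate 2 (0.0554). ctl-1 was higher by 0.37 ± 0.15 (edgeR adjusted p = 0.0484), a call lost in 13 of 21 alternatives, among them leaving out N2 replicate 1 (0.0687) or 2 (0.192), spr double mutant replicate 1 (0.127) or 2 (0.128), or any triple-labelled library (0.0528 to 0.0594). sod-2, sod-5 and ctl-3 overlapped between the groups and were not called, with 95% intervals of -0.067 to 0.11, -1.002 to 1.38 and -0.12 to 0.41.

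In daf-2 animals, the effect of the spr label is read from the triple-labelled libraries against the daf-2 group. Again 5 of the 8 genes were called, but in different directions: sod-4, sod-5 and ctl-2 were higher and sod-2 and sod-3 lower, against 47% of all genes called, 26.1% higher and 20.9% lower. The number called in each direction depended on the scaling. On total counts 4 members were called higher and 0 lower, beside 4371 higher and 2460 lower of all 15764 genes. With RLE size factors 3 members were called higher and 3 lower, beside 3933 higher and 3725 lower of all genes. The groups did not overlap for 7 of the 8 and for 52.7% of all genes. The rise of sod-4, from 17.1 ± 1.24 to 21.5 ± 1.27 CPM (SD, n = 3), was called in every alternative (log2 fold change 0.33 ± 0.073, edgeR adjusted p = 0.00102). ctl-2 went from 83.7 ± 5.21 to 93.0 ± 1.38 CPM (0.15 ± 0.043, edgeR adjusted p = 0.00688), with 0.096 and no call without daf-2 replicate 3 (edgeR adjusted p = 0.0728). In this comparison the daf-2 libraries have the larger ribosomal RNA share and the smaller sperm, neuron and intestine marker sums. Their oocyte marker sum (8 genes) was larger, at 4582 to 4796 CPM against 3402 to 3639 in the triple-labelled libraries. Their germline sum (7 genes) was 4811 to 5081 against 4192 to 4598 CPM. All 8 oocyte genes and 4 germline genes were called lower in the triple-labelled libraries, and 0 of either list higher. The intestine list was mixed there, with 3 genes higher and 2 lower (median -0.0081), and its sum follows asp-1 (881 CPM in daf-2, 1428 in the triple-labelled libraries). Of the neuron genes 7 were higher and 1 lower, and of the sperm genes 7 were higher and 0 lower. The part of these differences was not tested.

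The manganese genes moved the other way in that comparison, by small amounts. sod-3 went from 26.0 ± 2.203 to 22.1 ± 0.644 CPM, without overlap (log2 fold change -0.24 ± 0.090, edgeR adjusted p = 0.035). That call was lost on total counts (0.0687), under a filter of at least 1 CPM in 6 libraries (0.0597), and without daf-2 replicate 1 (0.137) or 2 (0.0603) or triple-labelled replicate 2 (0.0983) or 3 (0.0834). sod-2 was lower by 0.11 on the log2 scale (-0.11 ± 0.043, edgeR adjusted p = 0.0377), also lost in 6 alternatives, with -0.061 without daf-2 replicate 1 (edgeR adjusted p = 0.208), and no call without triple-labelled replicate 2 (0.084) or 3 (0.104). sod-5 had 35 counts over the daf-2 group and 68 over the triple-labelled group, a ratio of 1.75 with a counting interval of 1.149 to 2.71 (edgeR adjusted p = 0.0416), and this call was lost in 9 alternatives. Those included leaving out any daf-2 library (0.0622 to 0.109), spr double mutant replicate 1 (0.0512) or triple-labelled replicate 2 (0.0526) or 3 (0.168).

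sod-1, ctl-1 and ctl-3 were not called in that comparison, but their side of the threshold also depended on single libraries. sod-1 was at -0.087 (edgeR adjusted p = 0.0822) and passed without daf-2 replicate 2 (0.0366) or 3 (0.0278). ctl-1 was at 0.31 (edgeR adjusted p = 0.0627), passed without daf-2 replicate 1 (0.0336) or 2 (0.0328), and fell to 0.12 without daf-2 replicate 3 (0.39). ctl-3 was at 0.17 (edgeR adjusted p = 0.207) and passed at 0.29 without daf-2 replicate 3 (0.0405). With the 3 catalase genes summed to a single row, the catalases were higher by 0.16 (edgeR adjusted p = 0.00341). That row is mostly ctl-2, and whether reads matching several copies were counted at all is not given in the sources used here.

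Against N2, the triple-labelled libraries were higher in 7 of the 8 genes, sod-2 again being the exception (0.040, edgeR adjusted p = 0.417), with 68.7% of all genes called, 35.4% as higher and 33.3% as lower. These 7 also had groups that did not overlap, as did 73% of all genes. sod-5 reached the filter level in 0 libraries of N2, so it entered only through groups where it was high. With a filter of at least 1 CPM in 6 libraries, sod-5 was not tested and 6 of 7 genes were called. The same filter called 8866 of 12274 genes in all. sod-4 rose by 0.86 ± 0.075, ctl-2 by 0.85 ± 0.044, ctl-3 by 1.06 ± 0.12 and ctl-1 by 0.92 ± 0.14, each to its highest group mean, while sod-1 (0.45 ± 0.041) and sod-3 (2.80 ± 0.11) had their highest group mean in daf-2. The comparisons named here share libraries, so their values are given side by side and are not independent. For sod-1 and sod-3 the order of the group means was N2, spr double mutant, triple-labelled, daf-2. For sod-4, sod-5 and the catalases it was N2, spr double mutant, daf-2, triple-labelled. For sod-1, sod-3 and ctl-2 no neighbours in these orders overlapped, whereas sod-4 and ctl-1 overlapped between the spr double mutant and daf-2. The share of all genes with 4 groups apart in this way was not counted. In the pairwise comparisons above, 52.7% to 73% of all genes did not overlap. sod-5 and ctl-3 overlapped between N2 and the spr double mutant, and ctl-3 also between daf-2 and the triple-labelled libraries. Of the 9 neuron markers, snb-1, egl-3 and ric-4 had the same order of group means as sod-4, sod-5 and the catalases. The others, unc-119, rab-3, unc-104, unc-31, sng-1 and rgef-1, did not, and the part of these markers was not tested.

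Because the genes differ in level, the largest fold change was not the largest addition to the family. Per exon length the 5 superoxide dismutase genes together came to 393 ± 8.29 CPM per kilobase in N2 and 554 ± 32.4 in daf-2 (SD, n = 3). Of the difference of 160.4 CPM per kilobase, sod-1 made up 72.4%, sod-3 16.2% and sod-2 8.69%. Within the manganese pair, 65.0% of the difference was sod-3, whose share of the pair went from 2.80% ± 0.119 in N2 to 17.6% ± 0.594 in daf-2. In animals with the spr label sod-3 made up 93.3% of the pair's difference, since sod-2 hardly differed there. The catalases together came to 36.7 ± 0.822 CPM per kilobase in N2, 42.7 ± 1.37 in the spr double mutant, 59.8 ± 3.63 in daf-2 and 67.0 ± 0.831 in triple-labelled samples, and ctl-2 held 85.8% to 87.8% of that in every library.

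**Figure D3:**
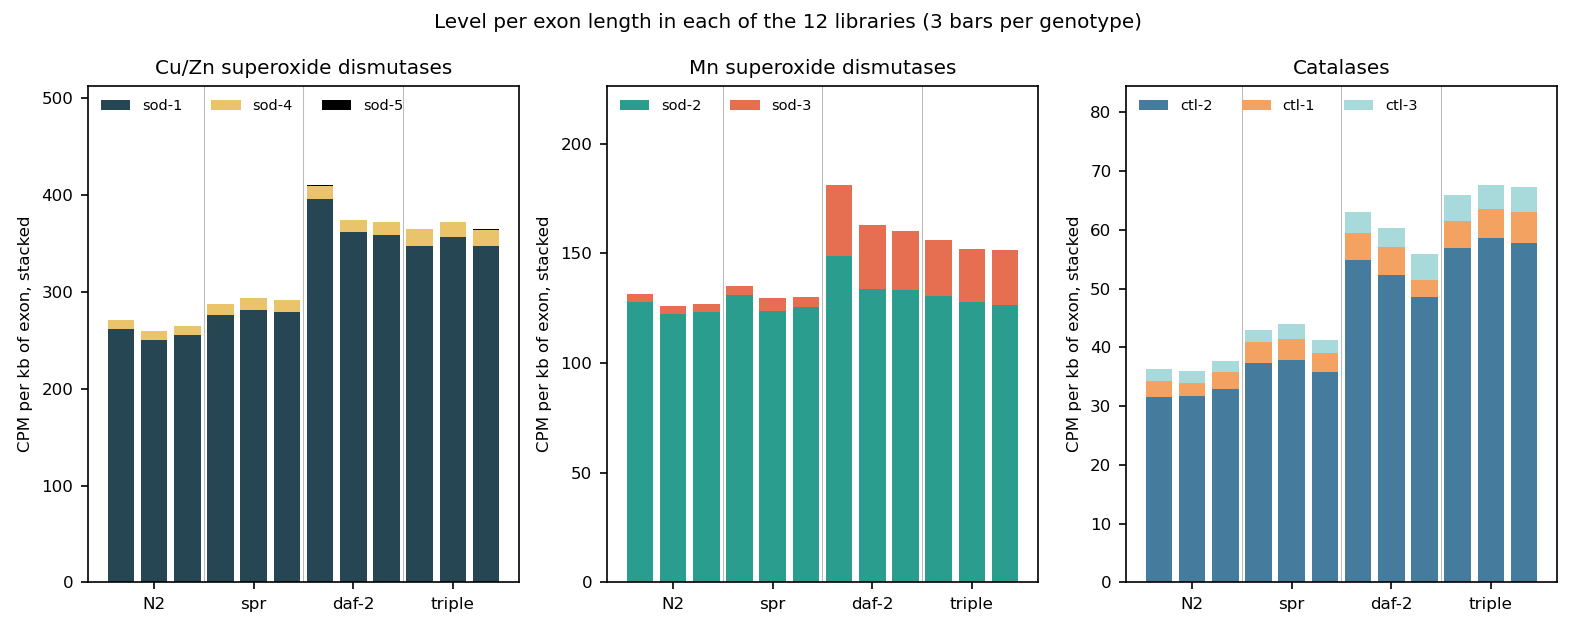
Stacked level per exon length (CPM per kilobase, y axes from 0 and different in each panel) in each library, 3 bars per genotype. sod-1 fills nearly all of the copper/zinc panel, sod-3 widens from 2.67% to 2.91% of the manganese pair in N2 to 16.9% to 18.1% in daf-2, and ctl-2 holds most of the catalase level in every bar.

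The catalase level also shifted relative to that of the superoxide dismutases. Catalases came to 9.04% to 9.60% of the superoxide dismutase level per exon length in the N2 libraries and to 9.78% to 10.4% in the spr double mutant. In daf-2 this was 10.49% to 11.2%, and in the triple-labelled libraries 12.7% to 13.02%. The ranges of the 4 groups did not overlap. These shares use measured values of the members only and were not tested.

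Other genes of oxidant handling moved less evenly than the members. In daf-2 against N2, 11 of 17 glutathione system genes rose and 1 fell, with a median log2 fold change of 0.27. gst-4, a glutathione S-transferase and common SKN-1 reporter, rose by 1.47 and gst-10 by 0.84, gpx-7, a glutathione peroxidase gene, rose by 0.59, and gpx-3 fell by 0.99. Of 12 tested peroxiredoxin and thioredoxin genes 6 rose and 3 fell (median 0.094): the thioredoxin gene trx-1 rose by 1.21 and trx-2, the mitochondrial one, by 0.34, while trx-3 fell by 1.19 and msra-1, a methionine sulfoxide reductase, by 0.55. Peroxisome biogenesis genes rose in 3 of 11 and fell in 2 (median 0.053), with prx-2 at 0.84, prx-11 at -0.31, and prx-1 and prx-13 at -0.30 and 0.30. The medians stand beside -0.0015 for all genes tested and 0.65 for the members. Over all genes tested 54.3% were called in this comparison, 27.4% as higher and 26.9% as lower. The peroxisome calls were near or below these shares.

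Genes that make or use hydrogen peroxide elsewhere, the dual oxidases and haem peroxidases, rose in 1 of 10 and fell in 4 in daf-2 (median -0.14). The haem peroxidase gene skpo-2 fell by 2.46 and skpo-1 by 0.26, and doxa-1, a dual oxidase maturation factor, by 0.28. duox-2 rose by 1.61, but it is a close copy of bli-3 and therefore uncertain. It was also near the floor, at 0.104 CPM in N2, below the filter level, and 0.310 CPM in daf-2. In metal handling, the NRAMP transporter genes smf-3 and smf-1 rose by 0.70 and 0.43, while cua-1, a copper pump, and cuc-1, a copper chaperone, fell by 0.19 and 0.18. Among 14 regulators 4 rose and 3 fell, near the 27.4% higher and 26.9% lower over all genes. pqm-1, a zinc-finger factor that shares targets with DAF-16, rose by 0.93. hif-1 rose by 0.24 and the DAF-16 partner smk-1 fell by 0.33. daf-16 itself fell by 0.17, a gene outside the rule for its list that was named after its values were seen.

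**Figure D4:**
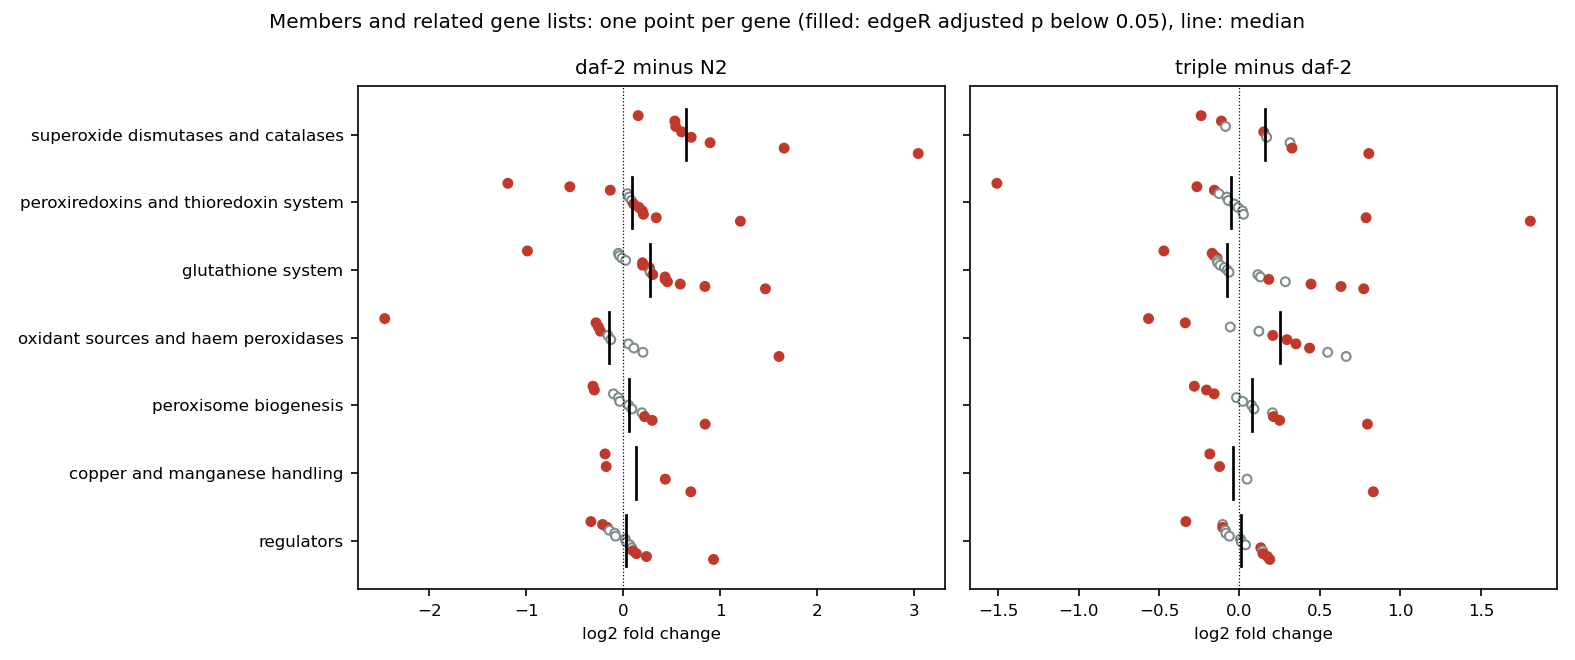
Log2 fold changes (x axis, different in each panel) of the 8 genes and of 6 related lists in daf-2 minus N2 and in the triple-labelled libraries minus daf-2, with a point per gene, filled where edgeR called it, and a line at the median. The members have the highest median in the left panel (0.65), where all their points are filled.

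With the spr label added to daf-2 4 of 17 glutathione genes rose and 4 fell (median -0.077, against 0.019 for all genes), a share called near the 47% over all genes. gpx-4 rose by 0.77, gst-4 by 0.63 and gpx-6 by 0.44, and gpx-7 fell by 0.47. Among the thioredoxin list 2 rose and 3 fell of 12, with trx-3 at 1.81, msra-1 at -1.51, trx-1 at 0.79 and txl-1 at -0.26. prx-2 rose by 0.79, and 3 of 11 peroxisome genes rose and 3 fell, prx-12 at -0.28, prx-5 at 0.25 and prx-13 at 0.21 being the next in size. Of the oxidases and peroxidases 4 of 10 rose and 2 fell, with skpo-1 at -0.57, mlt-7 at 0.44, tsp-15 at 0.35 and pxn-2 at -0.34. smf-3 rose by 0.83 and cuc-1 and cua-1 fell by 0.18 and 0.12. Of the regulators 4 rose and 2 fell, and pqm-1, atfs-1 and wdr-23 rose by 0.19, 0.17 and 0.15.

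In animals with intact daf-2, the spr double mutant had 8 of 17 glutathione genes higher and 2 lower than N2. Of 12 peroxiredoxin and thioredoxin genes 7 were higher and 3 lower. Over all genes 46.5% were called, 24.6% as higher and 21.9% as lower. trx-1, near the floor in N2, rose by 1.09 and prdx-6, a peroxiredoxin gene, by 0.28, while msra-1 fell by 0.88 and trx-3 by 0.68. gst-4 rose by 0.90 and gpx-6 by 0.73, while gpx-3 fell by 1.246 and gpx-7 by 0.74. Their medians were 0.17 and 0.13, against 0.20 for the members and 0.018 for all genes. The interaction was called in 6 of the 17 glutathione genes, 5 of them lower, and in 6 of the 12 thioredoxin genes, 5 of them lower, beside 28.7% called and 14.6% lower over all genes. The largest in the thioredoxin list were trx-3 (2.49), prdx-6 (-0.35), trx-4 (-0.34) and trx-2 (-0.22), and in the glutathione list gpx-3 (1.152), gpx-5 (-0.50), gst-10 (-0.48) and glrx-22 (-0.36).

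The genes most like each member were ranked by Pearson's r of log2 CPM over the 12 libraries, among 10493 named genes that are not members. The points are 4 genotypes of 3 libraries, so r mostly follows the group means, and it is given as a description. sod-3 was most like the globin gene glb-1 (r = 0.997), pck-2, which codes for phosphoenolpyruvate carboxykinase (0.996), and the small heat shock gene sip-1 (0.995), and 281 genes had r over 0.95. sod-1 was most like the protease gene asp-4 (0.992), sip-1 (0.991) and W01B11.6 (0.990). ctl-2 was most like scrm-1 (0.994), F54D5.3 (0.992) and the desaturase gene fat-5 (0.992), with 483 genes over 0.95. sod-4 followed M57.1 (0.988), ztf-13 (0.987) and the neuropeptide gene flp-1 (0.986).

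The remaining members had fewer or weaker partners. sod-5 was most like hsp-12.3 (0.969), slfl-5 (0.965) and daf-3 (0.965), and ctl-3 most like F48D6.4 (0.981), ZK822.8 (0.981) and the pantothenate kinase gene pnk-1 (0.979). ctl-1 followed adss-1 (0.971), arrd-13 (0.966) and efsc-1 (0.957), with 4 genes over 0.95. For sod-2 the closest were ndx-4 (0.928), the enolase gene enol-1 (0.897) and C23G10.2 (0.879), and 0 genes passed 0.95. Among the members themselves sod-1 and sod-3 were most alike (0.980), followed by sod-3 and ctl-2 (0.963), and sod-2 and sod-4 least (0.304).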

How the data were processed

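Stranded mRNA libraries were made from 500 ng of total RNA and read from both ends over 75 bp, per the labels' protocols. STAR, featureCounts 1.5.1 and WBcel235 are named in the submitters' processing notes. The deposited values are raw counts of reads per gene made by the authors. The strand setting of the counting is not given in the sources used here.

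Names, coordinates and exon lengths came from an annotation of WBcel235, and 43720 of 46739 identifiers had a name. Genes were kept by filterByExpr (minimum count 10) and scaled by TMM, and CPM uses these library sizes. CPM per kilobase divides by the union of annotated exons. One edgeR 4.0.16 quasi-likelihood model (R 4.3.3) was fitted to all 12 libraries, and contrasts were tested two-sided with Benjamini-Hochberg adjustment over all genes tested, called below 0.05. The SE is the absolute log2 fold change over the square root of F. Chi-square per degree of freedom was 3.4 to 16.5 between replicates, above counting error, and p-values measure the spread between these samples. The model was tested on simulated counts. Alternatives used DESeq2 1.42.0 and limma 3.58.1 among others.

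Genes named besides the members are up to 4 called genes by absolute log2 fold change from each list, and the 3 most alike in CPM for each member. One gene of the regulator list is not reported here. Members and lists were chosen with earlier results of these data known. No sequences were used here.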

Additional observations from a re-analysis of the deposited data

Results flagged for a closer look

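The daf-2 effect differed with the spr label for 2 of the 8 genes, by a test of the difference itself. The same test called 28.7% of all genes, 14.6% as lower, a share near that of the members. For sod-3 the rise with daf-2 was 3.04 without the spr label and 2.36 with it, a difference of -0.68 on the log2 scale (edgeR adjusted p = 0.00379), which ran from -0.81 to -0.47 when single libraries were left out and was called each time. For sod-1 the rises were 0.54 and 0.33, a difference of -0.21 (edgeR adjusted p = 0.00879), which ran from -0.24 to -0.16 when single libraries were left out and was called each time. On total counts the sod-1 difference was -0.087 and was not called (edgeR adjusted p = 0.24). Both differences use the triple-labelled libraries, where spr-3 was near N2, and the daf-2 libraries with more ribosomal RNA, and the part of these was not tested.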

How the results depend on the processing

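Of 48 values (8 genes in 6 tests), 31 kept their sign and their side of the threshold in all alternatives of the fit, 26 of them called, including the rises in daf-2 against N2 (sod-5 entered that test only through the group where it was high, and not at all under the 1 CPM filter). On total counts alone 1 member was called for the interaction, against 2, and 3 between the spr double mutant and N2, against 5. Of all 15764 genes, total counts called 4686 and 7677 in these tests. With at least 1 CPM in 6 libraries, where sod-5 was not tested, 2 were called for the triple-labelled libraries against daf-2, in place of 5. That filter called 5888 of 12274 genes there. Leaving out single libraries gave 2 to 5 members called in each of the last 2 comparisons. The calls over all genes stayed within 1.5 times. Total counts moved the share called as higher from 53% to 35% for the spr double mutant against N2 and from 49.2% to 77.5% for the interaction. For the triple-labelled libraries it moved from 52.3% to 68.1% against the spr double mutant and from 55.5% to 64% against daf-2. Small differences in these tests therefore rest on the scaling.

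The values that changed sign were not called in the main test, apart from sod-5 in the triple-labelled libraries against daf-2, where sod-1 and sod-5 summed gave -0.085. That sum is nearly all sod-1, and it gave -0.21 for the interaction of sod-5. On total counts the interaction was 0.067 for ctl-1, 0.063 for ctl-2 and 0.0044 for sod-4, and sod-2 was at -0.068 between the spr double mutant and N2. The 3 catalases summed, a row that is mostly ctl-2, gave -0.057 for the interaction of ctl-3. Leaving out single libraries, the interaction ran from -0.25 to 0.043 for ctl-1 and from -0.059 to 0.15 for ctl-3, and the spr double mutant minus N2 from -0.00091 to 0.046 for sod-2 and from -0.30 to 0.64 for sod-5. The cause was not tested.

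Replicate numbers did not pair the libraries (residual correlations of same-numbered libraries -0.15 to 0.11, median 0). With the replicate number as a block 4 members were called in the spr double mutant against N2, where ctl-1 was lost (edgeR adjusted p = 0.0593), and 4 in the triple-labelled libraries against daf-2, where sod-5 was lost (0.0569). No other member's call changed. Of all 15764 genes, the fit with the block called 7092 and 7199 in these comparisons. At 2 to 28 counts per library, counting error limits sod-5 most.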

Other observations

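In daf-2 replicate 3 the split between the neighbouring catalase genes differed from that of the other libraries. ctl-1 came to 6.08% and ctl-3 to 9.03% of ctl-2 per exon length there, the lowest and the highest of the 12 libraries, which otherwise held 7.04% to 9.70% for ctl-1 and 5.42% to 7.84% for ctl-3. Over the daf-2 group the coefficient of variation was 23.7% for ctl-1 and 15.2% for ctl-3, against 6.22% for ctl-2. How reads shared by the copies were counted is not given in the sources used here.

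C08A9.3, which shares 65 bp of exon with sod-3 on the other strand, held 54 counts over all 12 libraries. Its level was 0.0090 ± 0.016 CPM in N2, 0.12 ± 0.061 in the spr double mutant, 0.18 ± 0.020 in daf-2 and 0.17 ± 0.034 in triple-labelled samples (mean ± SD, n = 3). It was chosen after its values were seen and was too low to be tested.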
